A study of Mus musculus with 6 samples.

Results

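The collagen genes of mouse liver are described here in 3 livers with Sox9 deleted and 3 control livers. All rows of the deposited gene table whose symbol is Col, a number, a and a number were taken, which gave 44 of 24411 rows. The members were taken by a rule on their names, but this family and the gene lists used below were chosen with earlier results of these data known. Of these 44 genes, 20 averaged 0.5 TPM or more across the samples and were tested among the 12539 genes that reached that level. TPM, a length-scaled share of all transcripts, is a level per length of transcript, so that levels of different genes can be set side by side. The 44 genes were divided by the kind of structure their proteins form, into 11 fibrillar genes (7 tested), 8 basement membrane genes (6 tested, among them types XV and XVIII, which lie in the basement membrane zone) and 25 other types (7 tested).

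The Sox9 cKO livers carried Alb-Cre+/+;Sox9 flox/flox (3 libraries) and were set against livers labelled WT (control, 3 libraries). Cre was driven by the albumin promoter, which is active in hepatocytes and in the precursors they share with bile duct cells, so the mesenchymal and endothelial cells of the same liver are not the cells in which this Cre line is designed to act. Whole liver RNA was sequenced as stranded mRNA libraries. C57BL/6J mice are named in the design text, and age and sex are not stated in the labels. Separate animals are not named for the libraries either, and p-values refer to the scatter of these samples, which may be technical. In bulk RNA, fewer cells of a type and less RNA per cell cannot be told apart.

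Sox9 was measured at 0.19, 0.40 and 0.68 TPM in Sox9 cKO livers and at 1.69, 1.43 and 1.43 TPM in controls (limma adjusted p = 0.0323; exact permutation test p = 0.1, the smallest possible with 3 against 3). Its mean was 0.423 TPM in Sox9 cKO and 1.52 TPM in controls, so it entered the tested set through its control values. Xist, which coats the silenced X of female cells, was at no more than 0.02 TPM in Sox9 cKO livers and at 114 and 123 TPM in control replicates 1 and 2, with 0.01 TPM in control replicate 3. The Y-linked gene Eif2s3y was at 47.6 to 49.9 TPM in Sox9 cKO livers and at 51.6 TPM in control replicate 3, against 0.07 and 0 TPM in control replicates 1 and 2. These sex markers set control replicates 1 and 2 apart from the other 4 libraries, so sex and genotype cannot be told apart for those 2 controls, and values against control replicate 3 alone are given further on. Sequencing depth is not kept in TPM and is unknown.

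Collagens are secreted proteins in which 3 chains wind into a rod-like helix. Fibrillar types I, III and V assemble into the fibres that give portal tracts and scars their strength, type IV chains polymerise into the sheet of basement membranes under ducts and vessels, and types VI, XII, XIV and XVI link fibrils to their surroundings. In liver most fibrillar collagen is made by hepatic stellate cells and portal fibroblasts, whereas type XVIII, the precursor of endostatin, is also made by hepatocytes. The sinusoids of healthy liver have little organised basement membrane, and bile ducts have one.

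RefSeq promoter windows of the GRCm38.p6 build, 250 bases before to 50 bases after an annotated start, were found for 16 of the 20 tested genes (18 windows). The windows of Col4a1 and Col4a2 are shown because these 2 genes are transcribed away from each other from a common region and were measured at nearly constant proportion, as described below. They lie at chr8:11312777-11313076 on the minus strand and chr8:11312555-11312854 on the plus strand, their annotated starts are 21 bases apart, and capitals mark the 78 bases that both windows hold, each the reverse complement of the other.
Col4a1: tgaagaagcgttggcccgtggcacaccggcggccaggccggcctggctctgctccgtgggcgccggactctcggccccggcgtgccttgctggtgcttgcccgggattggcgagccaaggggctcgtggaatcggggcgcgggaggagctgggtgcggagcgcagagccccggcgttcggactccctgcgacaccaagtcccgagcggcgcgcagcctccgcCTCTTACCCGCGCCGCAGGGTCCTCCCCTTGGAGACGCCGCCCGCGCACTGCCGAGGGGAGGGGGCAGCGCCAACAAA
Col4a2: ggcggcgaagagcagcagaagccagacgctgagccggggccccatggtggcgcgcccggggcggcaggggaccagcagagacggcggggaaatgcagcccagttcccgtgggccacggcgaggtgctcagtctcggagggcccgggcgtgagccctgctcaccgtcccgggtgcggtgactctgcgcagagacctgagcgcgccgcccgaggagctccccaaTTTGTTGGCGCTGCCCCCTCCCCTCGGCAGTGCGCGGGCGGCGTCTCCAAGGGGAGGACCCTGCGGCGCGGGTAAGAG

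Windows of Col3a1 and Col1a2, which were lower in Sox9 cKO, and of Col5a3, which was higher, are shown for comparison (chr1:45311288-45311587 plus, chr6:4505368-4505667 plus and chr9:20815018-20815317 minus). Capitals mark matches on either strand to 4 motifs. These were CCAAT (the CCAAT box), GGGCGG (the GC box), TATAAA (the core promoter box of that name) and AACAAT (a core that SOX proteins recognise).
Col3a1: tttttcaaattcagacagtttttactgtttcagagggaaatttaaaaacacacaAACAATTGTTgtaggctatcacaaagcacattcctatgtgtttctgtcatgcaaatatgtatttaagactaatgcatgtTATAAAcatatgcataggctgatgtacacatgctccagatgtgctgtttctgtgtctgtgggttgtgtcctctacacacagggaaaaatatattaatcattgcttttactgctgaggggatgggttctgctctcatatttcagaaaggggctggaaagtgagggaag
Col1a2: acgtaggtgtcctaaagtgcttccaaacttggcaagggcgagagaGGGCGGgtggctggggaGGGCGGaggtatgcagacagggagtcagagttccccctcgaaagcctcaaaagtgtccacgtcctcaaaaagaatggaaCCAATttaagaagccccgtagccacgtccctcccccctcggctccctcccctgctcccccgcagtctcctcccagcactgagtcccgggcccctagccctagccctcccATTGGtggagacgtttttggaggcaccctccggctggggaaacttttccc
Col5a3: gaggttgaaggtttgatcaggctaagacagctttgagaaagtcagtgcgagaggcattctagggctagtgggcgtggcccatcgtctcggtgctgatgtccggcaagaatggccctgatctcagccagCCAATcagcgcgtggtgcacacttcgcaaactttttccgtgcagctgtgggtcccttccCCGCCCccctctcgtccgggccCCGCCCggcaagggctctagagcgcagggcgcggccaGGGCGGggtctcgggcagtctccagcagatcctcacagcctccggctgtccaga
In Col3a1 the matches to AACAAT on the 2 strands overlap each other. CCAAT was present in 7 of the 18 windows against 37.4% of all 32851 promoter windows in the table, GGGCGG in 11 against 35.7%, TATAAA in 2 against 13.6% and AACAAT in 1 against 10.7%. Col1a2 and Col5a3, which moved in opposite directions, both held CCAAT and GGGCGG. These windows are not independent. Col18a1 and Col6a2 entered with more than 1 window each, and the bases shared by Col4a1 and Col4a2 hold a GGGCGG match that counts for both. No window was found for Col1a1, Col4a3, Col5a2 and Col14a1, all lower in Sox9 cKO. A match is a description of these letters only.

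Most of the measured collagen genes were lower in Sox9 cKO livers, in all 3 structural classes, and 2 fibrillar genes were higher. Most calls of lower genes, and both calls of higher genes, were lost when any 1 control was left out, as given further on. Control replicates 1 and 2 also differed in sex markers from the other libraries. Of 20 tested genes 12 fell, against 8.76% of all tested genes, and 2 rose, against 0.821% (limma on log2(TPM + 0.5), Benjamini-Hochberg adjusted p below 0.05 over all tested genes). The fibrillar class had 5 lower and 2 higher of 7, the basement membrane class 4 lower of 6, and the other types 3 lower of 7. The median log2 fold change was -1.39 for fibrillar genes, -1.10 for basement membrane genes and -0.88 for the other types, beside -0.24 for all tested genes. Every Sox9 cKO library was below every control library in 15 of the 20, against 33.7% of all tested genes, and above every control library in 2, against 3.79%. Because the median of all genes lay below 0, the counts were repeated after 2 other scalings. Each gave 8 lower and 2 higher collagen genes, against 2.04% lower and 1.16% higher of all genes after median centring and 1.71% and 0.957% after quantile normalization. The median of all genes was then 0.04 and 0.03. Col1a1, Col4a5, Col6a1 and Col16a1 were no longer called in either. All 14 called genes kept their direction under each of 18 other settings. Their groups did not overlap, so most of these settings could hardly have reversed a direction, and this is no separate check.

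**Figure D1:**
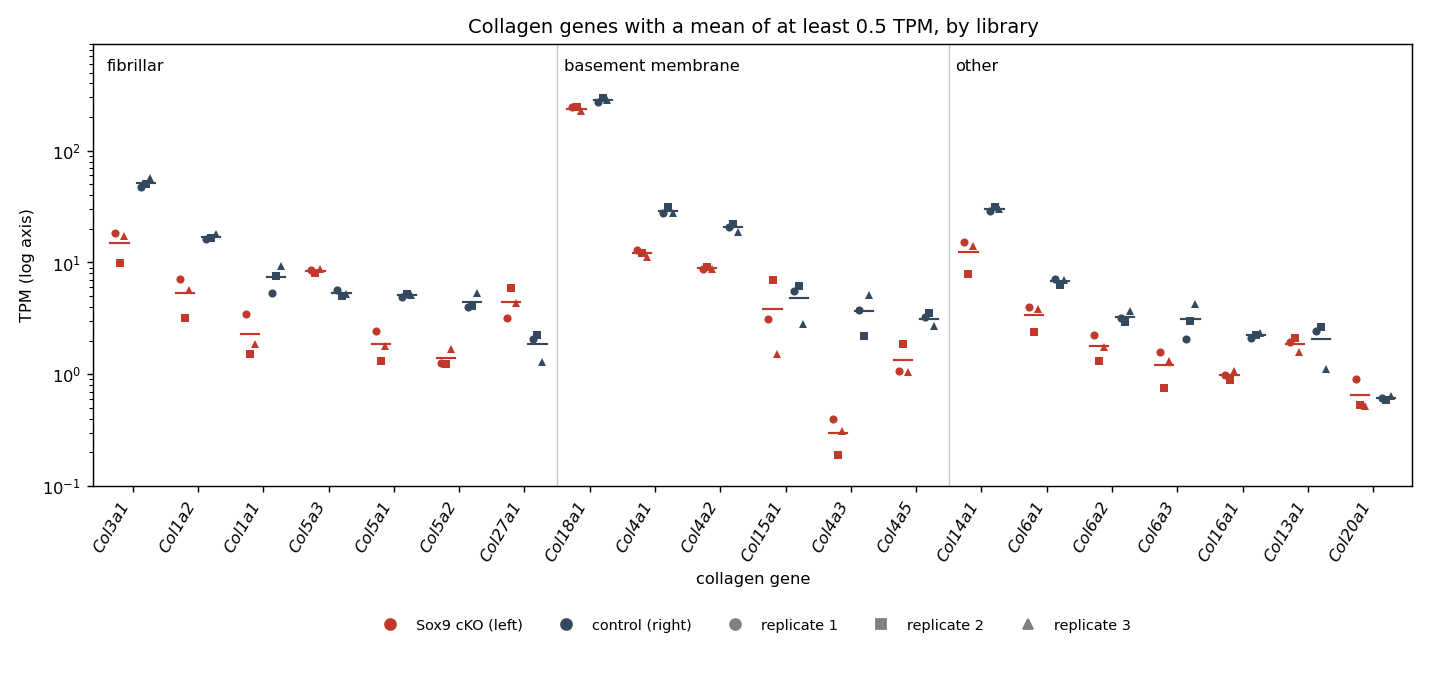
TPM of the 20 tested collagen genes (log axis), Sox9 cKO on the left and control on the right of each gene, 1 point per library and a bar at the mean of 3. The groups stand apart for 17 genes and overlap for Col15a1, Col13a1 and Col20a1.

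Of the fibrillar genes, Col3a1, the chain of type III collagen, had the highest level and the largest fitted decrease. It was at 18.4, 9.82 and 17.1 TPM in Sox9 cKO livers and at 47.4, 50.2 and 56.4 TPM in controls, so that 29.4% of the control mean remained (log2 fold change -1.78, SE 0.23, adjusted p = 0.00746). All Sox9 cKO values were below all controls, and Sox9 cKO replicate 2 was the lowest. Col3a1 (mm10 chromosome 1, 45311538 to 45349706, plus strand, 51 exons in its longest coding transcript) is neighboured on the same chromosome by Col5a2 (45374321 to 45503282, minus strand).

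The type I chains, which join in a ratio of 2 alpha-1 to 1 alpha-2 in the fibre, were lower by similar amounts. Col1a2 (chromosome 6, 4504814 to 4541544) was at 7.07, 3.16 and 5.65 TPM in Sox9 cKO livers and at 16.2, 16.6 and 18.1 TPM in controls (log2 fold change -1.65, SE 0.26, adjusted p = 0.0133). Col1a1 (chromosome 11, 94936224 to 94953042) was at 3.45, 1.51 and 1.88 TPM in Sox9 cKO livers and at 5.34, 7.60 and 9.21 TPM in controls (-1.53, SE 0.30, adjusted p = 0.0243). Neither gene overlapped between the groups. The Col1a1 controls were the more spread, and control replicate 3 was the highest of them.

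Type V chains, which are built into type I fibrils and limit their diameter, split. Col5a2 was at 1.27, 1.23 and 1.68 TPM in Sox9 cKO livers and at 3.96, 4.11 and 5.32 TPM in controls (-1.39, SE 0.19, adjusted p = 0.00964), and Col5a1 at 2.44, 1.32 and 1.79 TPM against 4.91, 5.25 and 5.15 TPM in controls (-1.28, SE 0.21, adjusted p = 0.0154). The third chain, Col5a3 (chromosome 9, 20770050 to 20815067, minus strand), rose, with 8.57, 8.06 and 8.66 TPM in Sox9 cKO and 5.66, 5.04 and 5.24 TPM in controls (log2 fold change 0.62, SE 0.13, adjusted p = 0.0331). Its libraries differed little within each group, with SDs of 0.324 TPM in Sox9 cKO and 0.316 TPM in controls. In control livers the 3 type V chains had similar levels, and in Sox9 cKO livers Col5a3 was the most abundant of them in each library.

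Col27a1, a fibrillar collagen best known from cartilage, had the largest increase (chromosome 4, 63214004 to 63334991, plus strand). It was at 3.17, 5.89 and 4.33 TPM in Sox9 cKO livers and at 2.06, 2.24 and 1.30 TPM in controls (log2 fold change 1.06, SE 0.26, adjusted p = 0.0449). The groups did not overlap, but the Sox9 cKO values covered a wide range, and the call is close to the threshold. Both increases were lost when any 1 control library was left out (adjusted p 0.0978 to 0.134 for Col5a3 and 0.108 to 0.132 for Col27a1). The remaining 4 fibrillar genes, Col2a1, Col11a1, Col11a2 and Col24a1, had 0.30 TPM as their highest value and were left untested.

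**Figure D2:**
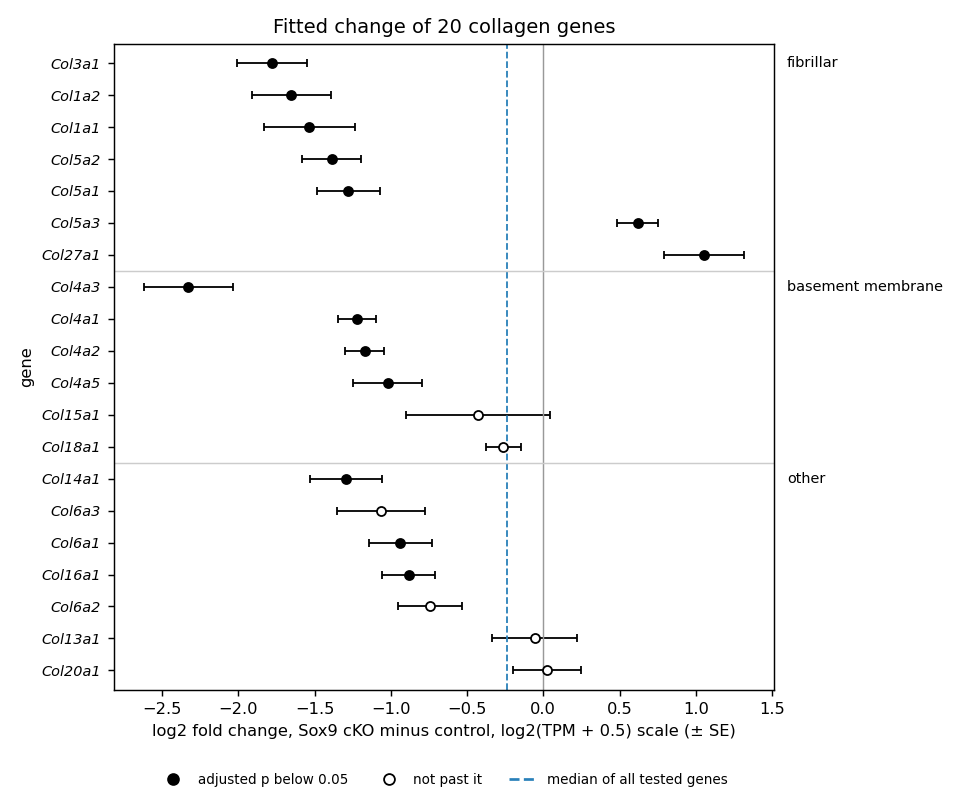
Fitted log2 fold change, Sox9 cKO minus control, with its SE for the 20 tested collagen genes by class. Filled points passed an adjusted p of 0.05 (12 lower, 2 higher), and the dashed line marks the median of all tested genes at -0.24.

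Among basement membrane genes, all 4 tested type IV chains fell, and 3 of them (without Col4a5) after either of the other scalings. Col4a1 (chromosome 8, 11198423 to 11312826, minus strand), which forms the common network with Col4a2, was at 12.8, 12.2 and 11.3 TPM in Sox9 cKO livers and at 27.6, 31.3 and 27.9 TPM in controls (log2 fold change -1.22, SE 0.13, adjusted p = 0.00466). Col4a2 (11312805 to 11449287, plus strand) was at 8.71, 9.05 and 8.76 TPM in Sox9 cKO livers and at 20.6, 22.2 and 18.9 TPM in controls (-1.17, SE 0.13, adjusted p = 0.00567). The Sox9 cKO values of both genes lay close together and far below all controls, and 41.9% and 42.9% of the control means remained.

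Col4a3, a chain of the second type IV network, in which it joins with Col4a4 and Col4a5, was low in Sox9 cKO livers and entered the tested set only through its control values. It was at 0.40, 0.19 and 0.31 TPM in Sox9 cKO livers and at 3.74, 2.20 and 5.09 TPM in controls, so that 8.16% of the control mean remained (log2 fold change -2.33, SE 0.29, adjusted p = 0.00669). Col4a5 (X chromosome, 141475385 to 141689234) was at 1.06, 1.88 and 1.05 TPM in Sox9 cKO livers and at 3.24, 3.53 and 2.69 TPM in controls (-1.02, SE 0.23, adjusted p = 0.0350). The Col4a5 value of Sox9 cKO replicate 2 lay between those of the other Sox9 cKO libraries and the controls.

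Col4a4, whose start lies next to that of Col4a3 on the opposite strand (chromosome 1, 82448423 to 82586849 and 82586921 to 82722059), had a mean under 0.5 TPM and was outside the tested set. It was listed at 0.09, 0.01 and 0.06 TPM in Sox9 cKO livers and at 0.82, 0.50 and 0.97 TPM in controls. In a fit without the level filter it passed as lower, where 11 collagen genes were lower and 5.09% of all 16867 genes. Col4a6 reached 0.07 TPM at most.

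Col18a1 and Col15a1, which carry endostatin-like domains, did not pass the test. Col18a1 (chromosome 10, 77052178 to 77166548, minus strand, overlapping Slc19a1 on the other strand) was the most abundant collagen gene by far, at 244, 245 and 226 TPM in Sox9 cKO livers and at 274, 297 and 286 TPM in controls (log2 fold change -0.26, SE 0.11, adjusted p = 0.169). Its groups did not overlap, but its log2 fold change was close to the median of all genes and was 0.01 after median centring. Col15a1 was at 3.12, 6.95 and 1.53 TPM in Sox9 cKO livers and at 5.60, 6.16 and 2.80 TPM in controls (-0.43, SE 0.47, adjusted p = 0.571), with groups that overlapped.

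Of the other types, 3 fell, all of them proteins that sit on or between fibrils. Col14a1, a fibril-associated collagen, was at 15.4, 7.88 and 14.1 TPM in Sox9 cKO livers and at 29.2, 31.1 and 29.9 TPM in controls (log2 fold change -1.29, SE 0.24, adjusted p = 0.0213). Col16a1, also fibril-associated, was at 0.98, 0.89 and 1.08 TPM in Sox9 cKO livers and at 2.12, 2.25 and 2.33 TPM in controls (-0.88, SE 0.18, adjusted p = 0.0258). Both genes had control values within a narrow range and no overlap.

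Type VI collagen forms beaded filaments from 3 different chains. Col6a1 fell, with 3.99, 2.37 and 3.82 TPM in Sox9 cKO and 7.07, 6.35 and 7.04 TPM in controls (-0.94, SE 0.20, adjusted p = 0.0331). Col6a3 was at 1.58, 0.75 and 1.32 TPM against 2.09, 3.01 and 4.27 TPM in controls (-1.07, SE 0.29, adjusted p = 0.0579), and Col6a2 at 2.27, 1.31 and 1.75 TPM against 3.16, 2.96 and 3.68 TPM in controls (-0.74, SE 0.21, adjusted p = 0.0622). Every Sox9 cKO library was below every control for each of the 3 chains, as for 33.7% of all tested genes, and only Col6a1 passed the threshold. Col6a4, Col6a5 and Col6a6 were at no more than 0.13 TPM.

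The membrane-bound Col13a1 and the fibril-associated Col20a1 were close to 0 in fitted change. Col13a1 was at 1.96, 2.10 and 1.58 TPM in Sox9 cKO livers and at 2.45, 2.63 and 1.12 TPM in controls (-0.06, SE 0.28, adjusted p = 0.909), and Col20a1 at 0.90, 0.53 and 0.52 TPM against 0.62, 0.59 and 0.64 TPM in controls (0.03, SE 0.22, adjusted p = 0.949). Both overlapped between groups, and SEs of this size leave room for a change in either direction. Col12a1, with a mean under 0.5 TPM, was at 0.49, 0.55 and 0.28 TPM in Sox9 cKO livers and at 0.52, 0.57 and 0.43 TPM in controls.

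Altogether 24 collagen genes were outside the tested set. Of these, 4 (Col2a1, Col9a2, Col11a1 and Col19a1) were listed at 0 in every library, 18 had values above 0 but under 0.5 TPM in every library, and 2 (Col4a4 and Col12a1) reached 0.5 TPM in at least 1 library.

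Summed over all 44 genes, collagen transcripts came to 327 ± 14.4 TPM in Sox9 cKO and 490 ± 18.2 TPM in controls (SD, n = 3 each). Col18a1 made up 72.8% ± 2.54 of that sum in Sox9 cKO and 58.3% ± 0.586 in controls. Without Col18a1 the sum was 99.3, 78.6 and 89.2 TPM in Sox9 cKO and 196, 208 and 210 TPM in controls, so that the remaining collagen transcripts were below the lowest control in every Sox9 cKO library.

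Leaving Col18a1 out, fibrillar genes made up 44.9%, 39.8% and 46.3% of collagen TPM in Sox9 cKO and 43.9%, 44.1% and 48.1% in controls. Basement membrane genes made up 26.4%, 38.5% and 25.9% in Sox9 cKO and 31.5%, 31.8% and 27.8% in controls. These shares overlapped between the groups for both classes, and Sox9 cKO replicate 2 stood out with the lowest fibrillar and the highest basement membrane share. That library was the lowest of the 3 Sox9 cKO libraries for 9 of the 12 genes that fell, and the highest for 6 of all 20, Col15a1 and Col27a1 among them.

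**Figure D3:**
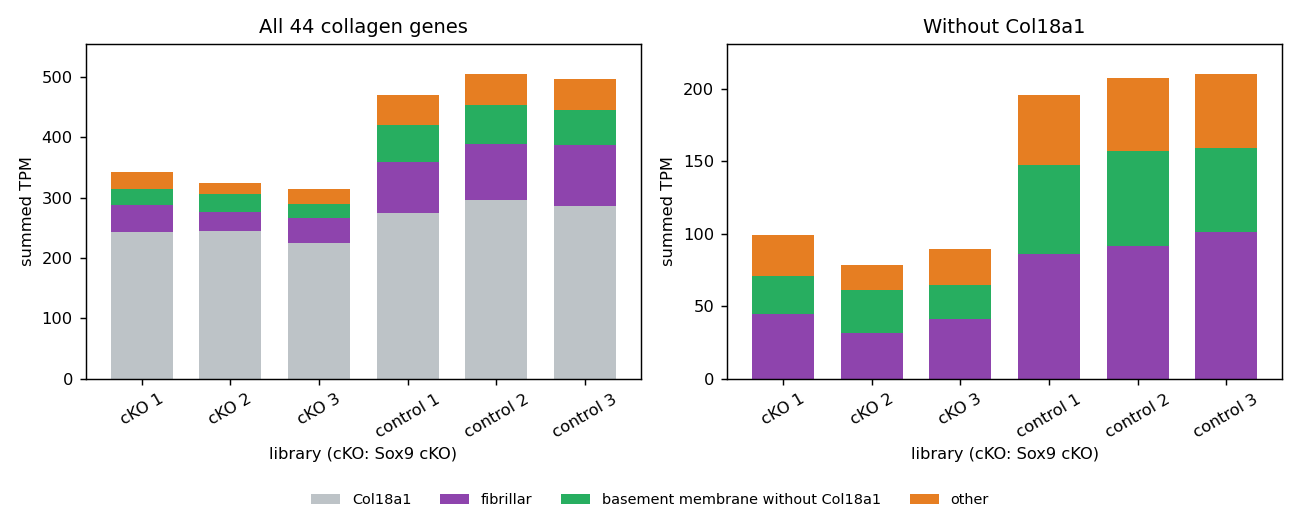
Summed TPM of collagen genes in each library, Sox9 cKO left of control, divided by class, with Col18a1 shown separately (left panel, 44 genes) and left out (right panel). Without Col18a1 the sums are 78.6 to 99.3 TPM in Sox9 cKO and 196 to 210 TPM in controls.

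Whether fibrillar and basement membrane genes differed in how far they moved was examined with ratios within a library, on the log2(TPM + 0.5) scale, for 7 pairs of genes (exact two-sided permutation tests over samples, which cannot go below p = 0.1, adjusted by Benjamini-Hochberg over the 7 pairs). The log2 ratio of Col3a1 to Col4a1 was 0.50, -0.30 and 0.57 in Sox9 cKO and 0.77, 0.67 and 1.00 in controls, a difference of -0.56 (exact p = 0.1, adjusted p = 0.7). The groups did not overlap, so Col3a1 was lower relative to Col4a1 in each Sox9 cKO library than in any control, with Sox9 cKO replicate 2 the farthest. Without that library the difference was -0.28. For Col1a1 to Col4a1 the mean log2 ratio was -2.24 ± 0.456 in Sox9 cKO and -1.93 ± 0.360 in controls (SD, n = 3 each; exact p = 0.4, adjusted p = 0.7), and the groups overlapped. No pair passed, and the design could not have passed one.

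Of the tested pairs, 4 were of chains that join in 1 molecule, and their ratios overlapped between the groups. The log2 ratio of Col4a2 to Col4a1, the pair whose promoter windows overlap in part, was -0.53, -0.41 and -0.35 in Sox9 cKO and -0.41, -0.48 and -0.55 in controls, a difference of 0.05 (exact p = 0.5, adjusted p = 0.7). The difference was 0.12 for Col1a1 to Col1a2 (exact p = 0.6, adjusted p = 0.7), 0.19 for Col6a2 to Col6a1 (exact p = 0.2, adjusted p = 0.7) and -0.11 for Col5a2 to Col5a1 (exact p = 0.8, adjusted p = 0.8). For Col3a1 to Col1a1, chains of different molecules, it was -0.24 (exact p = 0.4, adjusted p = 0.7). Each of these 5 pairs overlapped between the groups.

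Further ratios, chosen after the values were seen and therefore given without a test, were farther apart. Col5a3 to Col5a1 was 1.63, 2.23 and 2.00 in Sox9 cKO and 0.19, -0.05 and 0.02 in controls on the log2 scale. Col18a1 to Col4a1 was 4.20, 4.27 and 4.26 in Sox9 cKO and 3.29, 3.22 and 3.34 in controls, with SDs of 0.0417 and 0.0560. Col4a3 to Col4a1 was -3.89, -4.20 and -3.87 in Sox9 cKO and -2.73, -3.56 and -2.35 in controls. None of these 3 ratios overlapped between the groups.

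**Figure D4:**
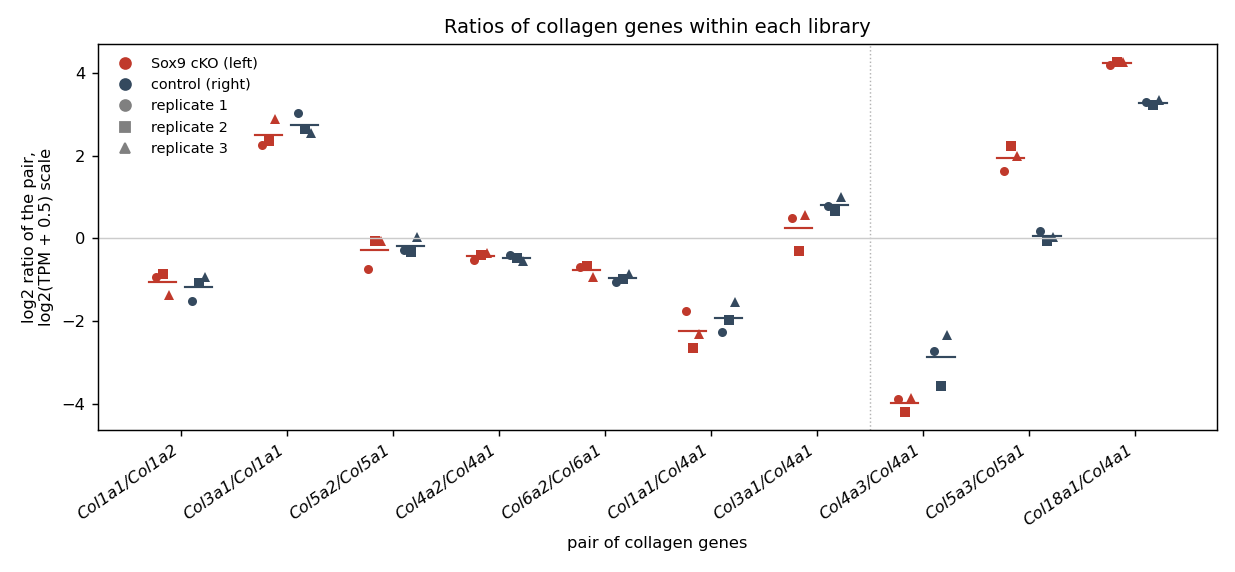
Log2 ratio of collagen gene pairs in each library, Sox9 cKO left of control, with the mean of 3 as a bar. The 7 pairs left of the dotted line were tested and the 3 right of it were chosen after their values were seen; Col3a1/Col4a1 is the tested pair whose groups stand apart (0.57 at most in Sox9 cKO, 0.67 at least in controls).

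Enzymes and chaperones that make, cut and crosslink collagen were partly lower. Of 36 such genes 31 were tested and 7 fell, against 8.76% of all tested genes, with a median log2 fold change of -0.56 beside -0.24 for all. Loxl2, a lysyl oxidase that crosslinks type IV collagen, was at 1.91, 1.81 and 1.57 TPM in Sox9 cKO livers and at 5.27, 5.35 and 5.60 TPM in controls (-1.39, SE 0.16, adjusted p = 0.00571). Sparc, a collagen-binding matrix protein, was at 74.7, 57.8 and 58.9 TPM in Sox9 cKO livers and at 156, 155 and 166 TPM in controls (-1.32, SE 0.14, adjusted p = 0.00466). Both had narrow groups that stood well apart.

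Pcolce, which enhances removal of the fibrillar C-propeptide, was at 9.54, 6.99 and 7.38 TPM in Sox9 cKO livers and at 14.9, 18.3 and 21.7 TPM in controls (-1.15, SE 0.19, adjusted p = 0.0155). Serpinh1, the collagen chaperone HSP47, averaged 16.0 ± 1.42 TPM in Sox9 cKO and 28.2 ± 4.00 TPM in controls (-0.79, SE 0.15, adjusted p = 0.0221). P3h3 (-0.80, adjusted p = 0.0357) and Crtap (-0.79, adjusted p = 0.0499), of the prolyl 3-hydroxylation machinery, and Colgalt1 (-0.49, adjusted p = 0.0364), a collagen galactosyltransferase, completed the 7.

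Subunits of prolyl 4-hydroxylase, which hydroxylates the prolines of the helix, did not pass. P4hb, a disulfide isomerase that is also its beta subunit, was at 1160 ± 227 TPM in Sox9 cKO and 1147 ± 23.2 TPM in controls (log2 fold change -0.0017, adjusted p = 0.995). P4ha1, a catalytic subunit, was at 5.96 ± 1.06 TPM in Sox9 cKO and 6.76 ± 0.690 TPM in controls (SD, n = 3 each; -0.18, adjusted p = 0.516). Lox, the founding lysyl oxidase, was listed at 0.18, 0.05 and 0.19 TPM in Sox9 cKO livers and at 0.40, 0.56 and 0.44 TPM in controls and was below the tested level.

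Of 12 genes listed as collagen receptors or binders 7 were tested and 3 fell, against 8.76% of all tested genes. Each of the 7 had its Sox9 cKO libraries below all controls, against 33.7% of all tested genes. Cd44, best known as a receptor of hyaluronan, was at 1.76, 0.90 and 2.64 TPM in Sox9 cKO livers and at 5.76, 7.33 and 4.71 TPM in controls (-1.56, SE 0.31, adjusted p = 0.0257). Itga1, the integrin chain that binds type IV collagen, was at 5.60 ± 1.13 TPM in Sox9 cKO and 9.35 ± 0.921 TPM in controls (-0.70, adjusted p = 0.0499), and Cd93, an endothelial membrane glycoprotein, fell by 0.79 on the log2 scale (adjusted p = 0.0495). These 3 calls were lost in 9 (Cd44), 14 (Itga1) and 16 (Cd93) of 18 other settings. The discoidin receptors Ddr1 (-0.67, adjusted p = 0.110) and Ddr2 (-0.77, adjusted p = 0.0825) and the integrin chain Itgb1 (-0.37, adjusted p = 0.128) did not pass.

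**Figure D5:**
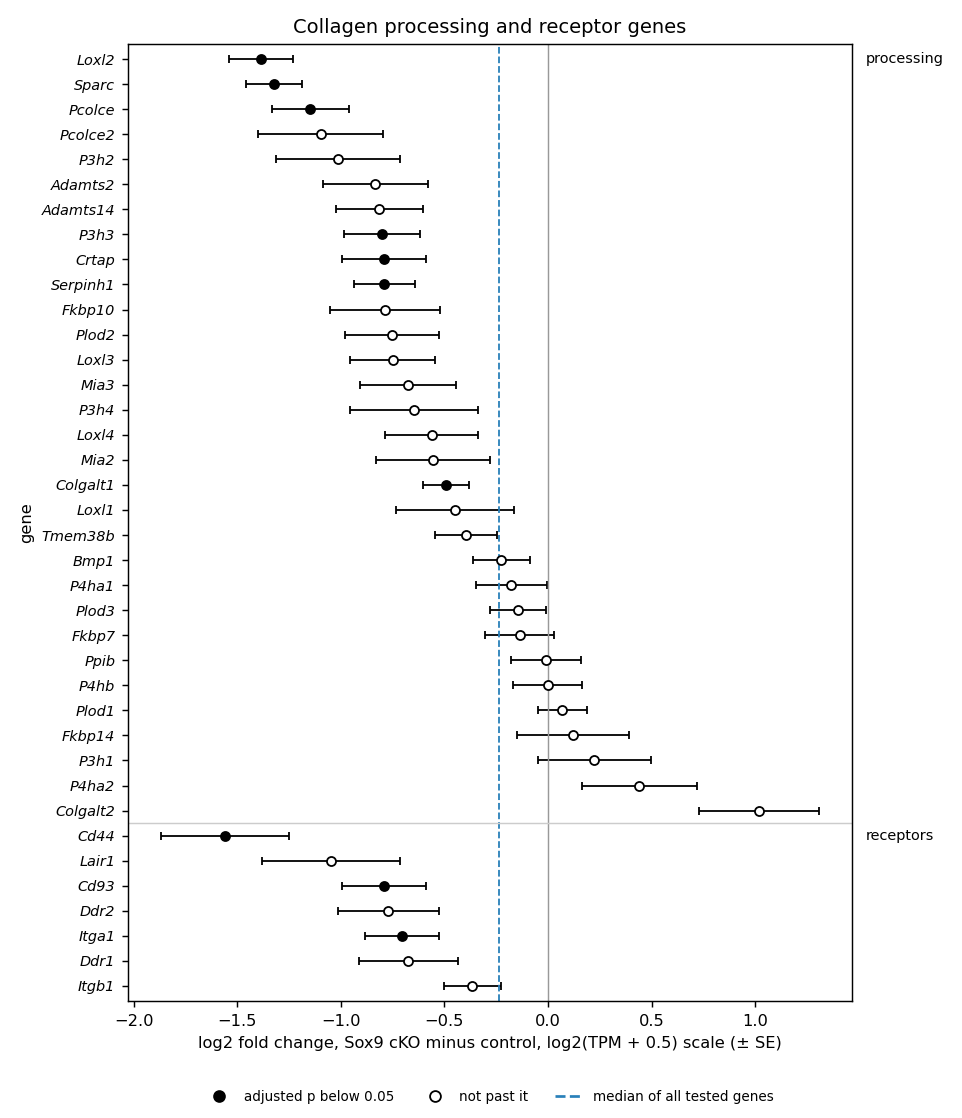
Fitted log2 fold change, Sox9 cKO minus control, with its SE for 31 collagen processing and 7 collagen receptor genes. Filled points passed an adjusted p of 0.05 (7 and 3, all lower), and the dashed line marks the median of all tested genes at -0.24.

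Set against control replicate 3 alone, the control with Y-linked transcripts, all 3 Sox9 cKO libraries were lower for 15 of the 20 collagen genes, against 47.9% of all tested genes. These are the same 15 whose Sox9 cKO libraries were below all controls, the 12 genes that fell among them. Their place below control replicate 3 follows from that and is no separate check. From that library the Sox9 cKO mean differed, as a median on the log2 scale, by -1.62 for fibrillar, -0.93 for basement membrane and -0.93 for other genes, beside -0.19 for all tested genes. For Col3a1 it was -1.87, for Col4a1 -1.17 and for Col4a3 -2.80, and for Col5a3 and Col27a1 it was 0.64 and 1.46. With Xist status as a term in the model only Col4a3, tested through its control values alone, passed as lower (adjusted p = 0.0329), against 0.391% of all genes, while 14 collagen genes had an unadjusted p below 0.05 in that direction. Without control replicates 1 and 2 the limma count was 0, against 0.144% of all genes, with 12 at an unadjusted p below 0.05. Both fits rest on control replicate 3 as the lone control with Y-linked transcripts. Shares of all genes at an unadjusted p below 0.05 are not given for them. In the main limma fit 16 of the 20 collagen genes and 3738 of all 12539 tested genes were below it in either direction. Many genes outside the family thus passed that threshold there, and how the 2 other fits compare is not known.

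Leaving out 1 control at a time also shortened the list of calls. Without control replicate 1 there were 5 lower collagen genes, against 1.26% of all genes, without control replicate 2 there were 4, against 0.829%, and without control replicate 3 there were 5, against 2.13%. Col3a1, Col4a1, Col4a2 and Col4a3 were called in each of these 3 fits, Col4a3 having been tested through its control values alone. In each fit 14 collagen genes were lower at an unadjusted p below 0.05. The share of all genes at that threshold is not given, so these counts cannot be set against all genes. In the main limma fit 3738 of all 12539 tested genes were below it in either direction.

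Some markers of cells that make collagen were also lower in Sox9 cKO, and the counts of each marker list stand beside 8.76% lower of all tested genes. Of 14 hepatic stellate cell markers, all tested, 7 fell, and their summed level was 126 to 186 TPM in Sox9 cKO and 260 to 297 TPM in controls. Among them Pdgfrb, the receptor of a stellate cell mitogen, fell by 1.16 on the log2 scale (adjusted p = 0.0114). Of 14 portal fibroblast markers 10 were tested and 3 fell (Gas6, Eln and Fbn1), with sums of 21.4 to 41.6 TPM in Sox9 cKO and 67.3 to 87.5 TPM in controls, while Clec3b, Fbln1 and Gli1 stayed under 0.5 TPM in every library. Gas6 alone made up 60.6% of that sum.

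Endothelial markers summed to 128 to 184 TPM in Sox9 cKO and 212 to 239 TPM in controls, with 3 of 12 lower. Kupffer cell markers summed to 185 to 407 TPM in Sox9 cKO and 548 to 928 TPM in controls, with 7 of 10 lower. Cholangiocyte markers had 3 of 9 tested lower, among them the deleted gene Sox9, which was tested through its control values. They summed to 51.7 to 75.6 TPM in Sox9 cKO and 87.5 to 146 TPM in controls. Spp1, which was not called, made up 73.1% of that sum, and Cftr and Sctr stayed under 0.5 TPM. Of 4 tested smooth muscle markers limma called 0 (2 at an unadjusted p below 0.05), and their sums, 9.97 to 22.9 TPM in Sox9 cKO and 21.2 to 23.2 TPM in controls, overlapped. Of 9 tested hepatocyte markers limma called 0 (0 at an unadjusted p below 0.05), with sums of 103200 to 116500 TPM in Sox9 cKO and 135200 to 141500 TPM in controls, of which Alb made up 74.3%. No marker on these lists was listed at 0 in all 6 libraries. The part of these cell types, and of the sex of the animals, in the collagen differences was not tested.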

How the data were processed

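Liver mRNA of 6 mouse samples was analysed. Trim Galore 0.5.0, cutadapt 1.16, STAR 2.6.0a, RSEM 1.3.1 and the mm10 build are named per the submitters' processing notes. Which annotation and strand setting the counting used is not given in the sources used here, so overlapping genes on opposite strands, such as Col4a1 and Col4a2 at their starts, are uncertain. The authors deposited TPM, which divides estimated reads by gene length and scales each library to a fixed total. Depth is therefore lost, no counting interval was computed, and a change in abundant genes shifts all others. Columns were matched to samples by library number.

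From the deposited TPM, those genes averaging 0.5 TPM or more were put on the scale log2(TPM + 0.5). limma 3.58.1 under R 4.3.3 then fitted a group term with a variance trend. All p-values are two-sided, with Benjamini-Hochberg adjustment over 12539 genes. Fold changes are Sox9 cKO minus control and understate changes of low genes. On data simulated for this comparison over 12539 genes, 53% of 100 genes changed 2-fold and 85% of 100 changed 4-fold were recovered. In it 9 unchanged genes were called. The changed genes had a mean of at least 1 TPM, with folds added on the log2(TPM + 0.5) scale and normal scatter drawn for each gene separately. Recovery of lower genes is therefore not given. All members with a mean of at least 0.5 TPM are named. Of the processing and receptor lists, those past the threshold and a few fixed by name are given. Pdgfrb, Gas6, Eln and Fbn1 were named after their values were seen. The members and lists were chosen with earlier results of these data known. Positions are from GENCODE M21 (GRCm38). Alternatives were other pseudocounts (0.1 and 1), filters and scalings, no variance trend, array weights, a replicate block, leaving out libraries, and a sex-marker term (Xist above 10 TPM). Exact tests used scipy 1.17.1, and figures matplotlib 3.10.9.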

Additional observations from a re-analysis of the deposited data

How the results depend on the processing

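Of 359 values of single collagen genes under other settings, 260 kept direction and side of the threshold, 84 lost their call, 1 gained it (Col6a3 with array weights) and 14 changed sign, all of genes not called. For Col13a1 these were 0.22 with median centring, 0.43 with quantile normalization, 0.04 without Sox9 cKO replicate 3, 0.07 and 0.12 without control replicates 1 and 2 in turn, and 0.55 with the sex-marker term and without both of these controls together. For Col15a1 they were 0.021 without Sox9 cKO replicate 3 and 0.20 in the same last 2 fits, for Col18a1 0.013 with median centring, and for Col20a1 -0.12 without Sox9 cKO replicate 1 and -0.0035 in the last 2 fits. Leaving out 1 library gave -0.92 to 0.021 for Col15a1, -0.36 to 0.12 for Col13a1 and -0.12 to 0.11 for Col20a1.

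Leaving out 1 library gave 4 to 11 lower collagen genes, 1 to 5 of them fibrillar, 3 to 4 basement membrane and 0 to 3 other, with 0 to 1 higher, 2 to 7 lower processing and 0 to 3 lower receptor genes. Without control replicates 1, 2 and 3 in turn, fibrillar genes numbered 2, 1 and 2, other types 0 each time (5 at an unadjusted limma p below 0.05) and receptors 0 each time (5, 6 and 6). With the sex-marker term limma called 1 collagen gene as lower, in the basement membrane class, and 0 fibrillar, 0 other, 0 processing and 0 receptor genes (5, 5, 12 and 3 at an unadjusted p below 0.05) and 0 higher (2). Without control replicates 1 and 2 together each of these counts was 0, with 5 fibrillar, 3 basement membrane, 4 other, 8 processing, 3 receptor and 1 higher gene at an unadjusted p below 0.05. The lone control is assumed there to vary like the Sox9 cKO libraries. Shares of all genes at an unadjusted p below 0.05 are not given for these other settings.

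With median centring, and likewise with quantile normalization, there were 1 other, 2 processing and 0 receptor genes (5 and 2 receptors at an unadjusted p below 0.05). Rescaling gave 1 higher, 4 processing and 1 receptor gene, array weights 1 higher and 16 processing genes, a pseudocount of 0.1 gave 1 receptor gene, and no filter 0 higher (2 at an unadjusted p below 0.05) and 1 receptor gene. Counting types XV and XVIII among the other types changed no count. For Sox9 the log2 fold change was -0.88 with median centring (adjusted p = 0.0941), -0.66 with quantile normalization (0.226), -1.10 with the sex-marker term (0.204) and without control replicates 1 and 2 (0.360), and -1.35 to -0.97 without 1 library, where the call held only without Sox9 cKO replicate 3. The cause of these losses was not tested.

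Same-numbered libraries did not deviate together (r = -0.0446, 0.00354 and -0.0269 across genes). No pairing by number was seen, but correlations of this kind cannot exclude that samples were paired. With a replicate block 10 collagen genes were lower and 0 higher (2 at an unadjusted p below 0.05), with 3 processing and 0 receptor genes (7 at an unadjusted p below 0.05), and the Sox9 log2 fold change was -1.16 (adjusted p = 0.0643). Under other pseudocounts and left-out libraries the differences of the 7 pair ratios moved by no more than the larger of the SDs of the groups. That of Col3a1 to Col4a1 was -0.28 without Sox9 cKO replicate 2, that of Col5a2 to Col5a1 was 0.11 without Sox9 cKO replicate 1 and 0.0066 without control replicate 3, and that of Col1a1 to Col1a2 was -0.05 without control replicate 1. Over all tested genes, 1099 were lower and 103 higher. These counts were 256 and 146 with median centring, 215 and 120 with quantile normalization, 704 and 95 rescaled, 2312 and 252 with array weights, 563 and 85 with the block, 49 and 21 with the sex-marker term, 18 and 9 without control replicates 1 and 2, and 104 to 1003 and 32 to 107 without 1 library. Depth is unknown, so the counting error of levels under 0.5 TPM, such as those of Col4a3 in Sox9 cKO and of Col4a4, cannot be given.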
